A study of Mus musculus with 12 samples.

Results

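Lymphocytes assemble their antigen receptor genes by cutting the chromosome and joining the ends, and 10 genes of that machinery are described here in thymic tissue and thymic masses of mice. They were taken by name: Rag1, Rag2, Dntt, Xrcc5, Xrcc6, Prkdc, Dclre1c, Lig4, Xrcc4 and Nhej1, 10 of the 24478 gene symbols in the deposited tables. Each was read from the transcript with the most reads over the 12 libraries, and all 10 passed the filter on low counts, with between 1674 and 204165 reads in all.

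The proteins of Rag1 and Rag2 form the recombinase that cuts at signal sequences beside the V, D and J gene segments, and in the thymus they are made in waves, in early thymocytes and again in those carrying both CD4 and CD8. Dntt encodes terminal deoxynucleotidyl transferase, which adds bases without a template at the junctions. The breaks are sealed by classical non-homologous end joining: the Ku heterodimer of Xrcc5 and Xrcc6 binds the ends, the kinase encoded by Prkdc and the nuclease Artemis (Dclre1c) open the hairpins, and ligase IV (Lig4) with Xrcc4 and the factor encoded by Nhej1 joins them. Unlike the recombinase and the transferase, which are made by developing lymphocytes, the end joining proteins are used by nearly all cells for the repair of broken chromosomes.

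Poly(A) RNA was sequenced from 4 groups of 3 libraries, all labelled as thymic tissue. Controls were labelled as T lymphocytes expressing endogenous MYC alone. The T58A lymphomas and the S62A lymphomas were labelled as T lymphocytes expressing an ectopic MYC mutant alone, MYCT58A or MYCS62A, proteins with alanine in place of a phosphorylated threonine or serine. The last group came from S62A animals with splenomegaly, an enlarged spleen; its thymic masses were labelled as T and B lymphocytes that expressed ectopic MYCS62A together with endogenous MYC. Disease was described as spontaneous. The labels give no age, strain or promoter of the ectopic gene, and nothing in them says whether the 3 libraries in each group are different mice; a p-value therefore covers the scatter seen here, part of which may be technical.

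Reads summed over genes ranged from 9577372 to 22437968 a library, and no libraries of a group were alike within sampling noise. Controls 1 and 2 came close, with a chi-square per degree of freedom of 2.76, where sampling noise alone gives about 1. Control 3 gave 46.6 and 43.4 against controls 1 and 2, and pairs in the disease groups gave 19.8 to 123. Most of the scatter among controls is therefore that of control 3. The letter in the library titles was G for controls 1 and 2, H for control 3 and the T58A lymphomas, and I for all S62A libraries. Against controls, letter and group therefore cannot be told apart for S62A, and for T58A only control 3 shares the letter. Between T58A and S62A libraries, masses included, the letter differs throughout and cannot be told apart from the mutant. The labelled cell types were checked on marker lists. Summed reads of 12 pan T cell genes ran from 7261 to 7447 CPM (counts per 1000000 reads of the scaled library) in controls, 1901 to 2410 in T58A lymphomas, 1370 to 2614 in S62A lymphomas and 1074 to 1102 in splenomegaly masses, so T cell genes were present in every group. Summed reads of 10 B cell genes ran from 2305 to 3053 CPM in splenomegaly masses, against 110 to 123 in controls, 34.9 to 456 in T58A lymphomas and 30.9 to 48.5 in S62A lymphomas. Summed reads of 10 macrophage and monocyte genes ran from 648 to 751 CPM in controls, 1890 to 2675 in T58A lymphomas, 1588 to 2296 in S62A lymphomas and 4455 to 8090 in the masses. Of these 10 genes 8, 8 and 10 rose against controls (edgeR) and none fell.

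Promoters are shown for the 5 genes that moved most, the recombinase pair and Dntt, which were lowest in the masses, and the Ku pair, whose subunits moved apart. Each is the 250 bases before the RefSeq gene start in GRCm38.p6, read 5′ to 3′ on the strand of the gene. RefSeq rows were found for 9 of the 10 genes; none is printed for Prkdc. Capitals mark matches, on either strand, to CACGTG (the E-box bound by MYC and its partner MAX), CAGNTG (the E-box of E proteins), CCAAT (the CCAAT box), GGGCGG (the GC box bound by Sp factors), TATAAA (the TATA box) and TGTGGTT (bound by Runx factors). The windows are Rag1, chr2:101649533-101649782, minus strand; Rag2, chr2:101624462-101624711, plus strand; Dntt, chr19:41029025-41029274, plus strand; Xrcc5, chr1:72307171-72307420, plus strand; and Xrcc6, chr15:82016119-82016368, plus strand.
Rag1: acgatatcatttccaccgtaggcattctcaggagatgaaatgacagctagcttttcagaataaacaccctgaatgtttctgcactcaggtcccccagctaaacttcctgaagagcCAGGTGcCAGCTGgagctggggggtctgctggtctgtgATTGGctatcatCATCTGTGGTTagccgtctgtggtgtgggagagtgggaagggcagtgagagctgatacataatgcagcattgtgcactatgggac
Rag2: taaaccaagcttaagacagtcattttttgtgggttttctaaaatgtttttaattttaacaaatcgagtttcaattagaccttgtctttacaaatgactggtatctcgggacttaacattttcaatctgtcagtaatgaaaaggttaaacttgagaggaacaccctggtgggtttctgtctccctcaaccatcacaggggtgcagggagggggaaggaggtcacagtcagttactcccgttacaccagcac
Dntt: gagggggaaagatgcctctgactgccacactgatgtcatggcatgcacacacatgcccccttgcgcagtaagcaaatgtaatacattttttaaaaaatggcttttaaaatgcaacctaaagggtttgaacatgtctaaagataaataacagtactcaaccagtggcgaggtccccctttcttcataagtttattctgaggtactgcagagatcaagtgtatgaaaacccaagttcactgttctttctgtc
Xrcc5: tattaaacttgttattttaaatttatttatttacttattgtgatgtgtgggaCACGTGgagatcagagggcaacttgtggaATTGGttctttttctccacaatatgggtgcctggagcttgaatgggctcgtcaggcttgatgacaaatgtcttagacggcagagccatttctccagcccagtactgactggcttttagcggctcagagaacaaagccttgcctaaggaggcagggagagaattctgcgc
Xrcc6: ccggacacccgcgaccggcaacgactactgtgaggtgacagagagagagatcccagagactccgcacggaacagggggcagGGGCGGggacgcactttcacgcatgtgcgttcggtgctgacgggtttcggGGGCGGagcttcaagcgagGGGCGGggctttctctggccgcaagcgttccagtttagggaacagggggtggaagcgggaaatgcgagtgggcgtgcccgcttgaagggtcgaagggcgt

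The Rag1 window held 3 CAGNTG matches, at 135, 128 and 85 bases before the start, a CCAAT match read as ATTGG at 97, and TGTGGTT at 81, which overlaps the last E-box. No letters of these 6 motifs stood in the Rag2 and Dntt windows. The Xrcc5 window held CACGTG at 198 bases before the start and ATTGG at 169, and the Xrcc6 window held GGGCGG at 169, 119 and 100. Of 32851 promoters searched in the same way, CACGTG stood in 6.02%, CAGNTG in 44.8%, CCAAT in 33.9%, GGGCGG in 32.7%, TATAAA in 12.4% and TGTGGTT in 4.40%. G and C made up 50.8% of the Rag1 window, 41.2% of Rag2, 41.6% of Dntt, 44.8% of Xrcc5 and 65.2% of Xrcc6, against a median of 52.4% over all promoters. These matches describe the letters and are not evidence of binding.

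Across the 10 genes the lymphomas and the splenomegaly masses differed from control thymus in separate ways. Rag1, Rag2 and Dntt fell in all 3 disease groups, by 2.56-fold to 16.8-fold in the lymphomas and by 1375-fold or more in the masses. On FPKM with a pseudocount of 1, which understates the change of low genes, the log2 falls in the masses were smaller (Rag1 −8.30, Rag2 −6.84 and Dntt −9.33), and all 3 still passed in limma. Xrcc5, the larger Ku subunit, rose in both lymphoma groups, while its partner Xrcc6 fell in the masses alone among the 3 tests. Lig4 rose in S62A lymphomas and fell in the masses. In edgeR's quasi-likelihood test with an adjusted p under 0.05, 6 of the 10 genes passed in T58A lymphomas against controls, 1 up and 5 down, where 36.2% of all 15606 genes tested passed (18.8% up, 17.4% down). In S62A lymphomas 5 passed, 2 up and 3 down, a share near that of all genes, 44.1% (21.9% up, 22.2% down). In splenomegaly masses 9 passed, all down, where 49.2% of all genes did (22.9% up, 26.3% down). The median log2 fold changes of the 10 genes were −0.57, −0.48 and −1.68, beside 0.01, 0.00 and −0.08 over all genes tested. Libraries of the groups compared did not overlap for 8, 7 and 9 of the 10 genes, beside 60.0%, 60.3% and 70.5% of all genes. These 3 comparisons share the same controls. T58A lymphomas were also compared with control 3 as the lone control, the one with their letter H. The log2 fold changes of Rag2 (−3.91), Dntt (−3.12), Xrcc5 (1.63), Prkdc (−0.62) and Nhej1 (−1.18) were close to those with all controls. Far fewer genes of all kinds passed in that fit, as given under the processing settings, so its calls do not single out these genes.

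**Figure D1:**
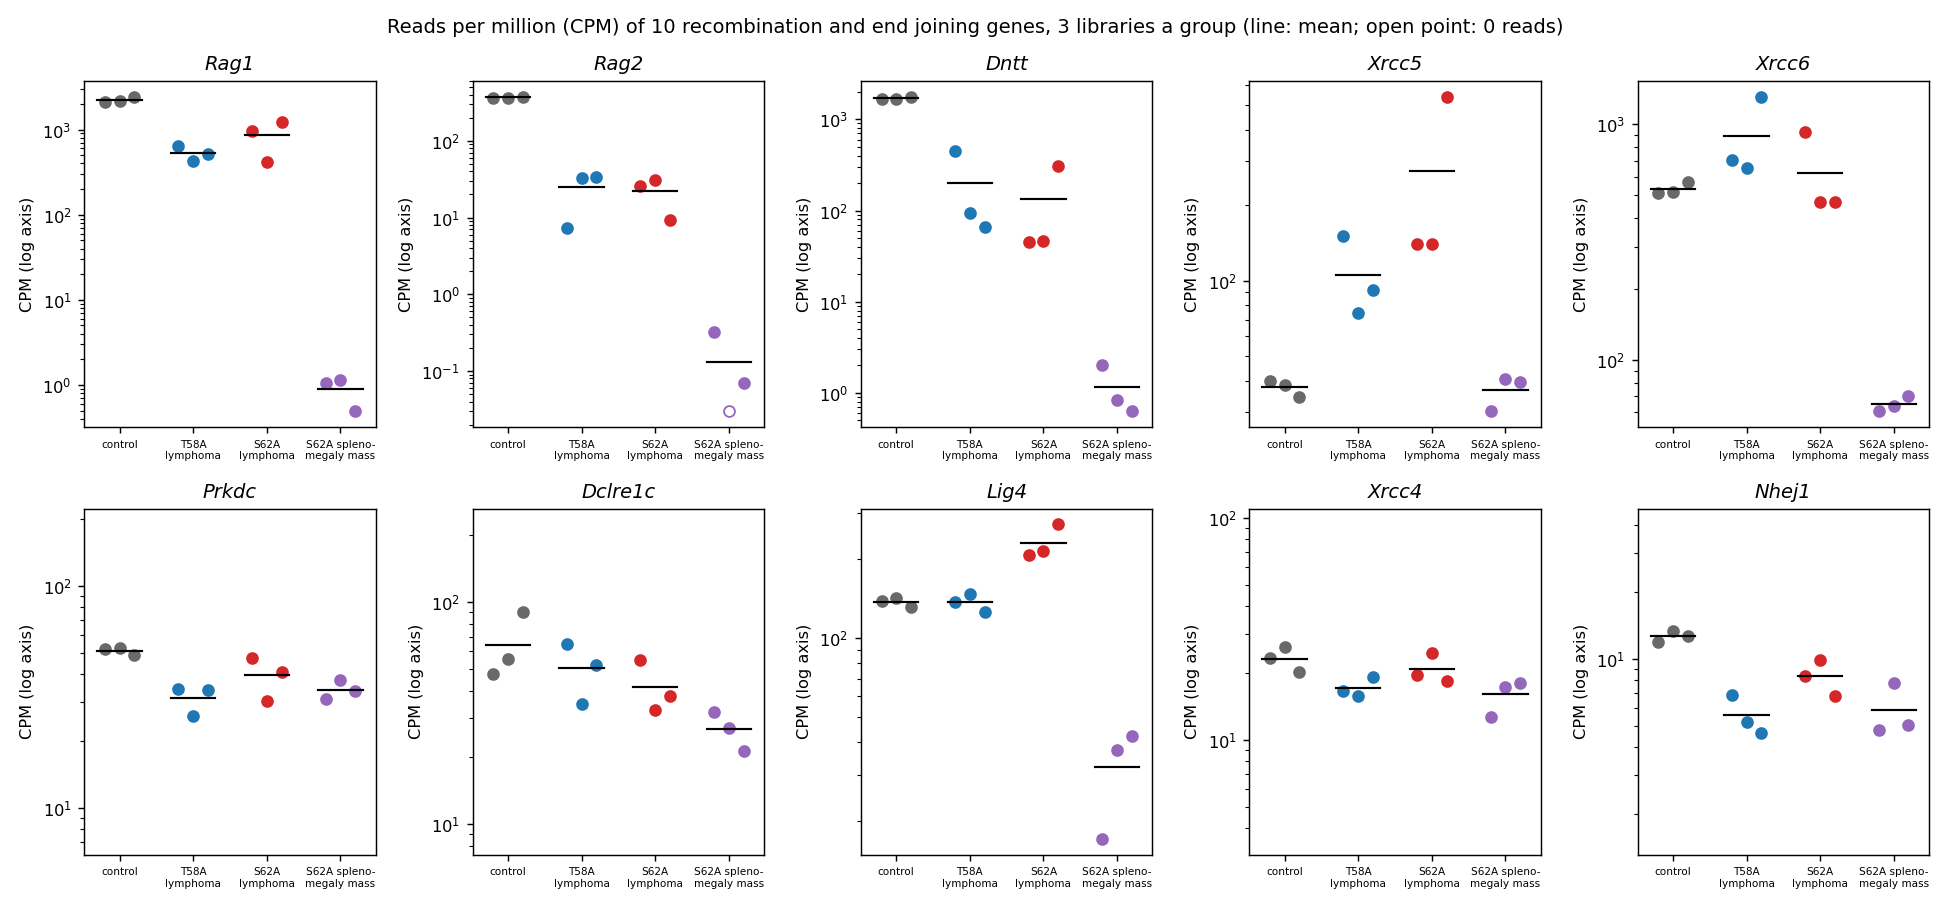
CPM (log axis) of the 10 genes in each of the 12 libraries, by group; points are libraries, lines are group means, and the open point marks 0 reads, at a height with no meaning on the log axis. Rag1, Rag2 and Dntt of the splenomegaly masses lie at 2.02 CPM or lower, far under every other library, and Xrcc5 of all 6 lymphomas lies above the controls.

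Rag1 encodes the catalytic subunit of the recombinase (NM_009019, minus strand of chromosome 2 from 101478411 to 101489689 on mm9). It stood at 2136, 2148 and 2430 CPM in controls 1 to 3, at 633, 431 and 518 in T58A lymphomas, at 965, 417 and 1243 in S62A lymphomas, and at 1.06, 1.16 and 0.491 in splenomegaly masses. All 9 disease libraries lay under the lowest control, the masses lay under every lymphoma, and the 2 lymphoma groups overlapped. The log2 fold change against control was −2.09 ± 0.34 (SE) in T58A lymphomas (4.24-fold lower, edgeR adjusted p = 0.000954) and −1.36 ± 0.34 in S62A lymphomas (2.56-fold lower, edgeR adjusted p = 0.00757). In the masses it was −11.28 ± 0.53 (edgeR adjusted p = 3.57e-07), on 20, 11 and 7 reads a library. Between the lymphoma groups the difference, 0.73 ± 0.33 higher in S62A, did not pass the test (edgeR adjusted p = 0.212).

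Rag2 encodes the regulatory subunit, which binds methylated histones at open chromatin (NM_009020, plus strand of chromosome 2 from 101464905 to 101472685). The genes lie tail to tail, with 5725 bases between their ends. Rag2 stood at 363, 366 and 375 CPM in controls, at 7.27, 32.8 and 34.2 in T58A lymphomas, at 25.7, 30.7 and 9.40 in S62A lymphomas, and at 0.318, 0 and 0.0702 in the masses. Controls lay far above all other libraries, and the lymphoma groups covered nearly the same range. The fall was 14.8-fold in T58A lymphomas (log2 −3.89 ± 0.58, edgeR adjusted p = 0.000528) and 16.8-fold in S62A lymphomas (−4.07 ± 0.58, edgeR adjusted p = 0.000325). In the masses it was −11.09 ± 0.90 (edgeR adjusted p = 5.86e-06) on 7 reads in the group, and the library with 0 reads allows a level of up to 0.313 CPM. Without mass 1, which held 6 of those reads, the value was −12.83. The 5′ part of Rag2 overlaps the antisense gene B230118H07Rik over 4239 bases, and the strand setting of the counting is not given in the sources used here, so reads of the overlap could belong to either gene. B230118H07Rik stood between 20.8 and 29.0 CPM in controls, 22.2 and 43.0 in T58A lymphomas, 10.7 and 71.8 in S62A lymphomas and 3.26 and 7.11 in the masses.

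The subunits of the recombinase did not fall to the same degree. Per transcript length (FPKM as deposited, reads scaled to transcript length and library depth), Rag1 exceeded Rag2 by 2.93, 2.92 and 3.23 times in controls. The ratio was 43.3, 6.55 and 7.54 in T58A lymphomas and 18.7, 6.76 and 65.8 in S62A lymphomas. All 6 lymphomas lay above all controls, with T58A lymphoma 1 and S62A lymphoma 3 highest. The ratio in the masses was 1.66 and 3.49 in libraries 1 and 3, on few reads, and could not be formed where Rag2 had none.

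**Figure D2:**
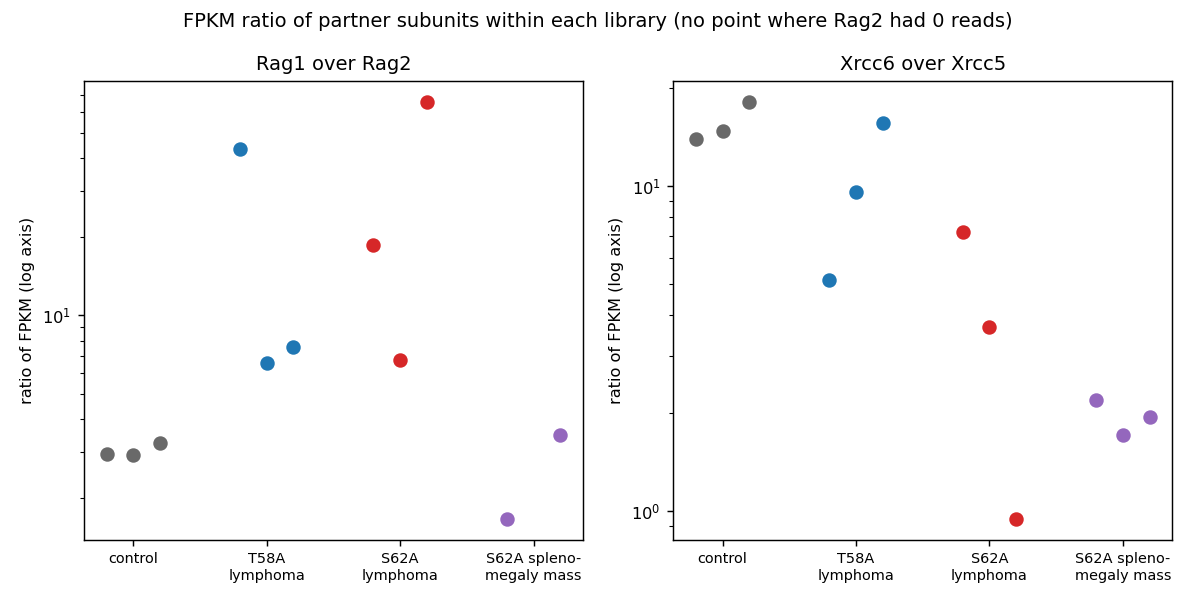
Ratio of FPKM within each library (log axis), Rag1 over Rag2 on the left and Xrcc6 over Xrcc5 on the right, 1 point a library; the mass with 0 Rag2 reads has no point. Rag1 over Rag2 is between 2.92 and 3.23 in controls and at least 6.55 in every lymphoma, and Xrcc6 over Xrcc5 is between 13.9 and 18.1 in controls and 2.19 or lower in the masses.

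Dntt (NM_009345, plus strand of chromosome 19 from 41103765 to 41134015) stood at 1668, 1664 and 1767 CPM in controls, at 448, 93.0 and 65.6 in T58A lymphomas, at 45.1, 46.8 and 306 in S62A lymphomas, and at 2.02, 0.841 and 0.631 in the masses. All disease libraries lay under the controls, but within each lymphoma group 1 library stood well above the others, T58A lymphoma 1 and S62A lymphoma 3. The fall was 8.40-fold in T58A lymphomas (log2 −3.07 ± 0.86, edgeR adjusted p = 0.0173) and 12.8-fold in S62A lymphomas (−3.68 ± 0.89, edgeR adjusted p = 0.00665). In the masses it was −10.42 ± 1.24 (edgeR adjusted p = 6.62e-05), on 38, 8 and 9 reads a library, and −11.15 without mass 1. The T58A call was lost without T58A lymphoma 2 (−2.75, edgeR adjusted p = 0.0550) or T58A lymphoma 3 (−2.65, 0.0511). The fall grew to −4.42 without T58A lymphoma 1 and, in S62A, to −5.21 without S62A lymphoma 3; on FPKM the S62A fall was −4.36 with a pseudocount of 1 and −4.39 with 0.1. DESeq2 gave no adjusted p for Dntt.

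Pan T cell genes were lower in the disease groups, so the reads of these 3 genes were also set against the summed reads of the 12 pan T cell genes. In bulk tissue, fewer cells of a type and less RNA per cell cannot be told apart. Rag1 had 288 to 335 reads per 1000 pan T reads in controls, 184 to 333 in T58A lymphomas and 192 to 907 in S62A lymphomas, and these ranges overlap. Rag2 had 49.1 to 51.6 in controls but 3.83 to 14.2 in T58A lymphomas and 6.86 to 14.2 in S62A lymphomas, so that all lymphomas stayed under all controls. Dntt had 223 to 243 in controls, 236 in T58A lymphoma 1 and 223 in S62A lymphoma 3. The other 4 lymphomas had 17.3 to 39.6. Splenomegaly masses had 0.450 to 1.08 for Rag1, 0 to 0.289 for Rag2 and 0.578 to 1.83 for Dntt, under every lymphoma for each gene. The pan T genes themselves changed unevenly: 8 of 12 fell in T58A lymphomas, 9 of 12 in S62A lymphomas and 11 of 12 in the masses (edgeR), with none up. T58A lymphoma 1 and S62A lymphoma 3 had the lowest pan T sums of their groups, 1901 and 1370 CPM, which raises their ratios. In S62A lymphoma 3 Cd3e had 21.7 CPM and Cd5 7.13, against 146 to 196 and 88.6 to 235 in the other S62A lymphomas. Lck (479 against 585 to 610) differed less, and Cd28 (204 against 57.8 to 176) was higher. Whether Rag1 or Dntt was kept per T cell in these libraries was not tested.

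**Figure D3:**
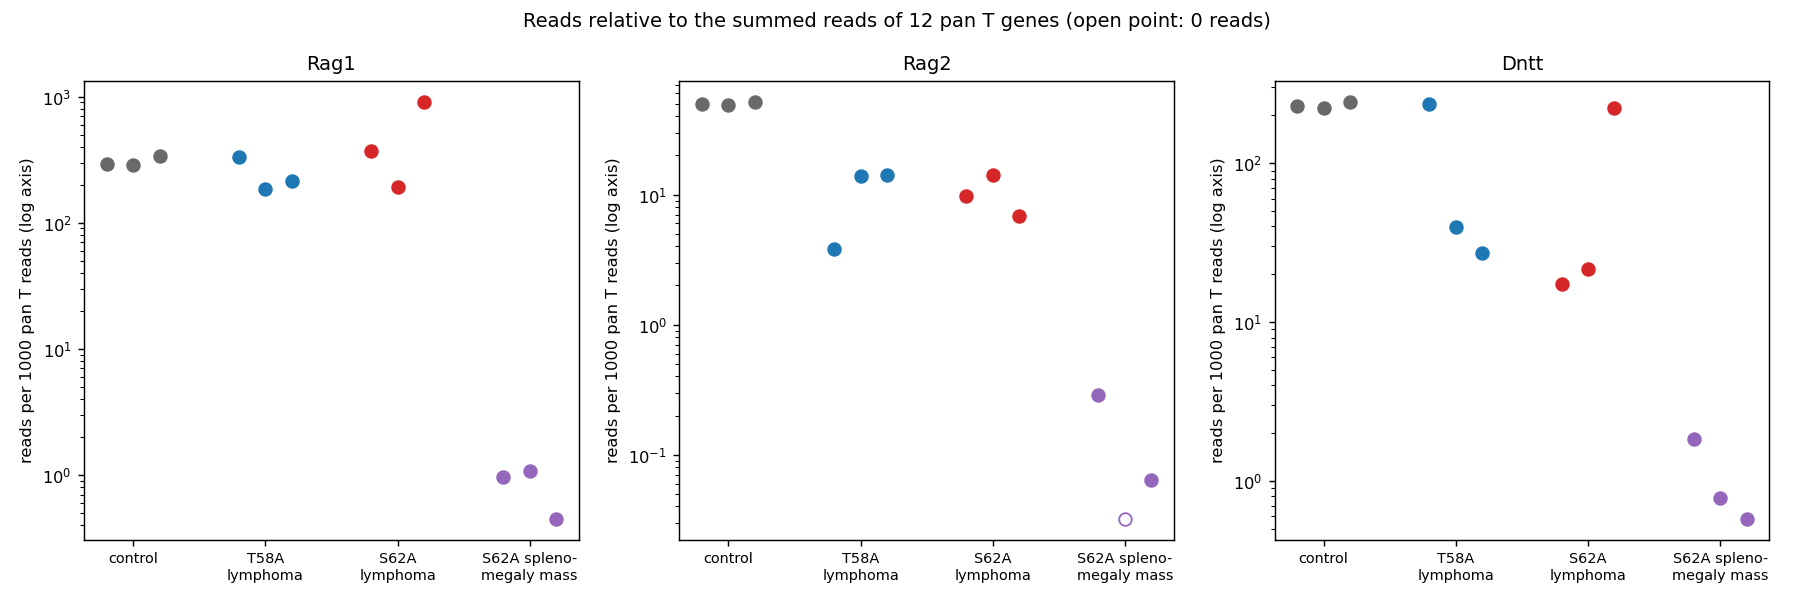
Reads of Rag1, Rag2 and Dntt per 1000 reads of the 12 pan T cell genes in each library (log axis), by group; the open point marks 0 reads. For Rag1 the lymphomas reach the control range of 288 to 335, whereas for Rag2 they stay at or under 14.2 against 49.1 to 51.6 in controls.

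Markers of double-positive thymocytes, the stage at which the recombinase is abundant, moved as well. The list holds 12 genes and neither Rag gene. Its summed level was 11777 to 13045 CPM in controls, 8547 to 10036 in T58A lymphomas, 7029 to 10528 in S62A lymphomas and 589 to 628 in the masses. Against controls 6 of the 12 fell and 1 rose in T58A lymphomas, 8 fell and 1 rose in S62A lymphomas, and all 12 fell in the masses (edgeR). Ptcra, the pre-T cell receptor chain, was nearly absent from all 3 disease groups. It had 51.0 to 61.2 CPM in controls, 0 reads in every T58A lymphoma, 0.0636 to 0.133 CPM in S62A lymphomas and 0 to 0.105 in the masses. Ptcra also stands in the list of early double-negative genes. Thymic epithelium genes summed to 2299 to 2522 CPM in controls and at most 158 in any disease library. Early double-negative genes, 10 in the list, summed to 555 to 779 CPM in controls, 342 to 540 in T58A lymphomas, 296 to 941 in S62A lymphomas and 685 to 817 in the masses. The sums hide opposite changes: 2 rose and 5 fell, 2 rose and 6 fell, and 3 rose and 4 fell in the same order (edgeR). In the masses Cd44 had 340 to 466 CPM against 30.6 to 31.4 in controls, and Il2ra 7.99 to 14.5 against 88.9 to 150. Il2ra alone had 500 CPM in S62A lymphoma 3. Neither the part of these changes nor that of the higher macrophage and monocyte genes in the fall of Rag1, Rag2 and Dntt was tested.

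The masses were labelled as holding B cells too, and B cell precursors also use the recombinase. All 10 B cell genes rose there against controls (edgeR). The immature B cell list, which shares some of its genes with the B cell list, summed to 765 to 1045 CPM against 73.5 to 87.5 in controls. Its surrogate light chain genes, which mark B cell precursors, were near 0: Vpreb1 had 0.318, 0 and 0.842 CPM, Vpreb2 0.424, 0 and 0, and Igll1 0.106, 0 and 0 in masses 1 to 3. Vpreb3, whose product is also made in later B cells, had 51.4, 47.6 and 56.3 CPM.

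Xrcc5 encodes the larger Ku subunit (NM_009533, plus strand of chromosome 1 from 72353995 to 72441527). It stood at 40.0, 38.3 and 34.4 CPM in controls, at 151, 74.6 and 91.6 in T58A lymphomas, at 140, 139 and 540 in S62A lymphomas, and at 30.2, 40.5 and 39.4 in the masses. Every lymphoma lay above every control and every mass, and S62A lymphoma 3 stood far above the rest. The rise was 2.81-fold in T58A lymphomas (log2 1.49 ± 0.47, edgeR adjusted p = 0.0289) and 7.27-fold in S62A lymphomas (2.86 ± 0.49, edgeR adjusted p = 0.000975). The masses overlapped the controls (−0.04 ± 0.47, edgeR adjusted p = 0.957). Without S62A lymphoma 3 the S62A rise was 1.89 (edgeR adjusted p = 0.000316). The T58A call was lost without control 1, 2 or 3 (edgeR adjusted p = 0.0731, 0.0788 and 0.0876) or without T58A lymphoma 1 (1.14, 0.106).

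Xrcc6 encodes the smaller Ku subunit (NM_010247, plus strand of chromosome 15 from 81846799 to 81870514). It stood at 509, 516 and 571 CPM in controls, at 707, 655 and 1308 in T58A lymphomas, at 926, 469 and 467 in S62A lymphomas, and at 60.5, 63.4 and 70.2 in the masses. T58A lymphomas lay above the controls, S62A lymphomas fell on both sides of them, and the masses lay far below. Neither lymphoma group passed the test (0.74 ± 0.30, edgeR adjusted p = 0.0733, and 0.22 ± 0.30, edgeR adjusted p = 0.570), though T58A did without T58A lymphoma 2 (0.92, 0.0475). The masses were 8.22-fold lower (−3.04 ± 0.32, edgeR adjusted p = 3.04e-05).

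The Ku subunits act as a heterodimer, and their RNA was unequal in every control: the FPKM of Xrcc6 was 13.9, 14.7 and 18.1 times that of Xrcc5. The ratio was 5.13, 9.60 and 15.6 in T58A lymphomas, 7.23, 3.68 and 0.945 in S62A lymphomas, and 2.19, 1.71 and 1.95 in the masses. S62A lymphomas and masses lay under all controls, and T58A lymphoma 3 alone among lymphomas lay within the control range. The masses came to their low ratio with Xrcc5 at the control level and Xrcc6 reduced, the lymphomas with Xrcc5 raised.

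Prkdc encodes the catalytic subunit of the DNA-dependent protein kinase, which Ku recruits to the ends (NM_011159, plus strand of chromosome 16 from 15637959 to 15842332). It stood at 51.9, 52.6 and 48.6 CPM in controls, at 34.3, 26.0 and 33.8 in T58A lymphomas, at 47.3, 30.2 and 41.1 in S62A lymphomas, and at 30.8, 37.5 and 33.7 in the masses. All disease libraries lay under the lowest control, by little in S62A lymphoma 1. The fall was 1.63-fold in T58A lymphomas (−0.70 ± 0.18, edgeR adjusted p = 0.0110) and 1.50-fold in the masses (−0.59 ± 0.18, edgeR adjusted p = 0.0187). S62A lymphomas did not pass (−0.37 ± 0.18, edgeR adjusted p = 0.115), except without S62A lymphoma 1 (−0.52, 0.0469). The call in the masses was lost without control 1 or 2 (edgeR adjusted p = 0.0532 and 0.0565) or without mass 1 or 3 (0.0811 and 0.0698).

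Dclre1c encodes Artemis, the nuclease that opens hairpin ends once the kinase has activated it (NM_146114, plus strand of chromosome 2 from 3341403 to 3372626). It stood at 47.3, 55.5 and 89.8 CPM in controls, at 64.8, 34.6 and 52.2 in T58A lymphomas, at 54.7, 32.6 and 37.7 in S62A lymphomas, and at 32.0, 27.0 and 21.4 in the masses. Lymphomas overlapped the controls, control 3 stood above all other libraries, and the masses lay below all others. It fell 2.39-fold in the masses (−1.26 ± 0.31, edgeR adjusted p = 0.00564), and neither T58A (−0.35 ± 0.30, edgeR adjusted p = 0.391) nor S62A lymphomas passed (−0.62 ± 0.30, edgeR adjusted p = 0.113). The gene has 5 transcript rows. The 3 longer ones overlap Suv39h2 on the other strand over 5300 bases and held fewer reads: NM_175683 had 0.282 to 0.467 of the reads of NM_146114 in controls and 0.153 to 0.626 over the other libraries.

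Lig4 encodes the ligase (NM_176953, minus strand of chromosome 8 from 9970020 to 9976323). It stood at 139, 142 and 131 CPM in controls, at 138, 147 and 125 in T58A lymphomas, at 209, 215 and 272 in S62A lymphomas, and at 17.0, 37.1 and 42.0 in the masses. T58A lymphomas covered the control range, S62A lymphomas lay above every other library, and the masses lay below. The S62A rise was 1.69-fold (0.76 ± 0.26, edgeR adjusted p = 0.0330), and the fall in the masses 4.29-fold (−2.10 ± 0.27, edgeR adjusted p = 0.000104). T58A lymphomas differed from controls by −0.00 ± 0.26 (edgeR adjusted p = 0.990). The S62A call was narrow: it was lost without control 1, 2 or 3 or S62A lymphoma 2 or 3, with edgeR adjusted p up to 0.0950, with library sizes as the sole scaling (0.0603), and in the limma fits on FPKM (adjusted p of 0.0570 and 0.0775 with pseudocounts of 1 and 0.1, and 0.0743 with no filter).

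Xrcc4 encodes the scaffold that stabilises the ligase (NM_028012, minus strand of chromosome 13 from 89988519 to 90229213). It stood at 23.3, 26.2 and 20.1 CPM in controls, at 16.6, 15.7 and 19.2 in T58A lymphomas, at 19.6, 24.6 and 18.3 in S62A lymphomas, and at 12.7, 17.2 and 18.0 in the masses. This was among the flattest of the 10 genes, with T58A lymphomas and masses just under the controls. The masses were 1.45-fold lower (−0.54 ± 0.20, edgeR adjusted p = 0.0477). That call was lost without control 1 or 2 or any 1 of the masses (edgeR adjusted p between 0.0702 and 0.204). With all libraries it was lost under RLE size factors (0.0675) or with no filter on low counts (0.0875). Either setting leaves 8 of the 10 genes called in the masses, beside 7618 and 7524 genes in all, against 7681 in the main fit. T58A (−0.43 ± 0.20, edgeR adjusted p = 0.118) and S62A lymphomas (−0.15 ± 0.20, edgeR adjusted p = 0.564) did not pass.

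Nhej1 encodes the Xrcc4-like factor that bridges the ends with Xrcc4 (NM_029342, minus strand of chromosome 1 from 75013920 to 75121800). It stood at 11.9, 13.4 and 12.7 CPM in controls, at 6.87, 5.22 and 4.66 in T58A lymphomas, at 8.40, 9.91 and 6.80 in S62A lymphomas, and at 4.78, 7.78 and 5.05 in the masses. All disease libraries lay under the controls. The fall was 2.27-fold in T58A lymphomas (−1.18 ± 0.28, edgeR adjusted p = 0.00794) and 2.17-fold in the masses (−1.12 ± 0.28, edgeR adjusted p = 0.00729). S62A lymphomas did not pass in edgeR (−0.60 ± 0.28, adjusted p = 0.103) but did in DESeq2 (−0.63, adjusted p = 0.0401) and in the 3 limma fits on FPKM (−0.66 to −0.71, adjusted p from 0.0249 to 0.0309).

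**Figure D4:**
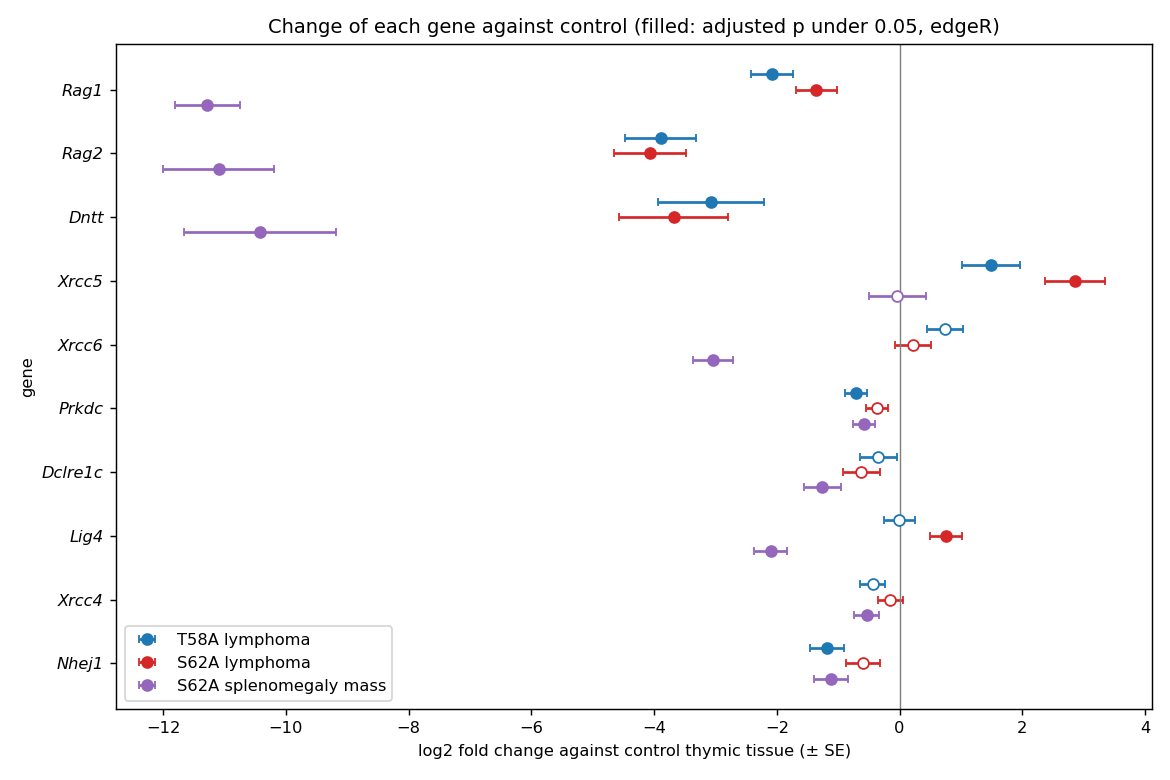
Log2 fold change against control (x axis, bars are ± 1 SE) of the 10 genes (y axis) in T58A lymphomas, S62A lymphomas and splenomegaly masses; filled points passed edgeR's test at an adjusted p under 0.05. Rag1, Rag2 and Dntt lie left of 0 in all 3 groups, Xrcc5 lies right of 0 in the lymphomas alone, and the filled points of Xrcc6 and Dclre1c are those of the masses.

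The ligase and its scaffold moved apart as well. The FPKM of Lig4 was 1.70 to 2.05 times that of Xrcc4 in controls, 2.05 to 2.94 in T58A lymphomas, 2.73 to 4.66 in S62A lymphomas and 0.420 to 0.732 in the masses. Masses lay under all controls and both lymphoma groups above them, T58A lymphoma 3 by the smallest margin.

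Levels per transcript length also show which steps had the most RNA. In controls the order by mean FPKM was Dntt (1053), Rag1 (357), Xrcc6 (340), Rag2 (118), Lig4 (36.0), Xrcc5 (22.0), Dclre1c (20.8), Xrcc4 (19.4), Nhej1 (18.5) and Prkdc (5.60). The libraries of Rag1 and Xrcc6 overlapped, as did neighbours from Xrcc5 to Nhej1. In T58A lymphomas Xrcc6 led (560), followed by Dntt (122), Rag1 (82.5) and Xrcc5 (60.5), with Dntt, Rag1 and Xrcc5 overlapping in turn, and Rag2 (7.83) and Prkdc (3.38) came last. In S62A lymphomas the order began with Xrcc6 (370), Xrcc5 (149), Rag1 (130), Dntt (76.8) and Lig4 (56.9), whose neighbours all overlapped, and ended with the same genes, Rag2 (6.57) and Prkdc (4.05). In the masses Xrcc6 (38.4) and Xrcc5 (20.0) led, and Dntt (0.666), Rag1 (0.134) and Rag2 (0.0379) came last, under Prkdc (3.47). Rag1 and Rag2 overlapped there.

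The lymphoma groups were compared with each other to ask whether the MYC mutants differed. In S62A against T58A lymphomas none of the 10 genes passed edgeR's test, where 3.15% of all genes did (0.859% higher and 2.29% lower). At an unadjusted p under 0.05 there were 3, beside 23.4% of all genes, Rag1 (0.73 ± 0.33), Xrcc5 (1.37 ± 0.47, edgeR adjusted p = 0.117) and Lig4 (0.76 ± 0.26, edgeR adjusted p = 0.115), all higher in S62A, and DESeq2 called 1, Xrcc5 (adjusted p = 0.0345). Lig4 was the gene whose libraries did not overlap between the groups, a state found in 21.1% of all genes. The remaining differences were −0.18 ± 0.53 for Rag2, −0.61 ± 0.80 for Dntt, −0.52 ± 0.30 for Xrcc6, 0.33 ± 0.18 for Prkdc, −0.28 ± 0.30 for Dclre1c, 0.28 ± 0.20 for Xrcc4 and 0.58 ± 0.28 for Nhej1. The errors of Rag2 and Dntt are wide, and a miss of the threshold does not show equal levels. The fit shares its estimate of spread over all 4 groups. Estimated within each group, the spread (biological coefficient of variation) was 41% in T58A lymphomas and 45% in S62A lymphomas. It was 17% in controls and 28% in the masses, so errors between the lymphoma groups may be too small. With only these groups in the fit, 0 genes of all those tested passed.

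The masses and the S62A lymphomas carry the same mutant. Between them 6 genes passed, all lower in the masses, where 54.3% of all genes passed (25.6% higher and 28.6% lower). The libraries did not overlap for 8 of the 10, a state found in 58.1% of all genes. The 6 were Rag1 (−9.93 ± 0.51), Rag2 (−7.03 ± 0.87), Dntt (−6.74 ± 1.10), Xrcc6 (−3.26 ± 0.33), Xrcc5 (−2.90 ± 0.49) and Lig4 (−2.86 ± 0.28), with edgeR adjusted p of 0.000586 or lower. Prkdc (−0.22 ± 0.18), Dclre1c (−0.64 ± 0.30), Xrcc4 (−0.38 ± 0.21) and Nhej1 (−0.52 ± 0.28) did not pass. Without S62A lymphoma 3 the Xrcc5 difference was −1.94 and the Dntt difference −5.21. Without mass 1 the Rag2 difference was −8.75 and the Dntt difference −7.45. On FPKM with a pseudocount of 1 the differences were −6.72 for Rag1, −2.75 for Rag2 and −4.98 for Dntt, all still passing in limma. Against T58A lymphomas 7 genes passed, all lower in the masses, where 45.1% of all genes passed (20.5% higher and 24.6% lower). The libraries did not overlap for 7 of the 10, a state found in 56.0% of all genes. Those that passed were the same 6, from −9.19 ± 0.50 for Rag1 to −1.53 ± 0.47 for Xrcc5, and Dclre1c (−0.91 ± 0.30, edgeR adjusted p = 0.0296). The Dclre1c value was −0.09 when read from the transcript with the fewest reads, and its call was lost without T58A lymphoma 1 or 3 or mass 2 or 3 (edgeR adjusted p between 0.0651 and 0.115). The Xrcc5 call was lost without T58A lymphoma 1 or mass 1 or 3 (0.0537 to 0.0854). Rag2 was −7.20, and −8.93 without mass 1; Dntt was −7.35, −6.01 without T58A lymphoma 1 and −8.06 without mass 1. On FPKM with a pseudocount of 1 Rag1 was −6.19, Rag2 −2.87 and Dntt −5.72.

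Proliferation markers, 10 genes, summed to 3067 to 3280 CPM in controls, 2635 to 2763 in T58A lymphomas, 2672 to 3946 in S62A lymphomas and 1384 to 2022 in the masses, where 9 of 10 fell (edgeR). Their part in the lower Ku and Lig4 RNA of the masses was not tested.

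The lymphomas of a group were not alike, and the same libraries stood apart for several of these genes, a pattern noted after the values were seen. T58A lymphoma 1 and S62A lymphoma 3 had the highest Rag1, Dntt and Xrcc5 and the lowest Rag2 of their groups. They also had the highest B230118H07Rik (43.0 and 71.8 CPM), the antisense neighbour of Rag2. Satb1, a chromatin organiser that acts on the Rag locus in thymocytes, stood at 355 and 84.8 CPM in these libraries, against 858 to 1264 and 250 to 982 in the other lymphomas of each group. The summed pan T genes were also the lowest of each group there (1901 and 1370 CPM). With 3 libraries a group this is a description.

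Proteins that work beside these 10 were read from fixed lists. Counts of these lists, and of the marker lists above, stand beside the shares of all genes tested that passed. Those shares were 18.8% up and 17.4% down in T58A lymphomas and 21.9% up and 22.2% down in S62A lymphomas. In the masses they were 22.9% up and 26.3% down. Several counts of the repair lists lie near these shares. Of 10 end joining partners 1 rose and 2 fell in T58A lymphomas, 4 rose and 2 fell in S62A lymphomas, and 3 rose and 4 fell in the masses (edgeR), with medians of 0.13, 0.18 and −0.39. The gene of the Ku-binding factor PAXX (BC029214 in the files) fell in all 3 groups, from 34.2, 37.7 and 39.4 CPM in controls to 13.0, 20.9 and 16.9 in T58A lymphomas, 10.2, 9.84 and 9.20 in S62A lymphomas and 21.1, 14.5 and 16.3 in the masses. All disease libraries lay under the controls. The log2 fold changes were −1.13 ± 0.21, −1.93 ± 0.22 and −1.10 ± 0.21 (SE). Poll, a gap-filling polymerase of end joining, rose from 8.46 ± 0.61 CPM (SD, n = 3) in controls by 1.27, 1.28 and 1.37 on the log2 scale. Polm, the polymerase most like terminal transferase, rose in the masses alone of the 3 tests (0.88, edgeR adjusted p = 0.00164).

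Among 5 cofactors of the recombinase, Hmgb1, whose protein bends the signal sequences, fell in T58A lymphomas (−1.18, edgeR adjusted p = 0.00620) and the masses (−1.28, edgeR adjusted p = 0.00257) and was −0.56 in S62A lymphomas (edgeR adjusted p = 0.110). Its relative Hmgb2 did not pass in any of the 3. In all, 0 rose and 1 fell in T58A lymphomas, 2 rose and 0 fell in S62A lymphomas, and 0 rose and 1 fell in the masses.

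Of the 14 genes fixed for break sensing and chromatin, 12 were in the files. In T58A lymphomas 3 rose and 1 fell, in S62A lymphomas 5 rose and 1 fell, and in the masses 1 rose and 4 fell (edgeR). H2afx, the histone variant phosphorylated at breaks, fell from 561, 549 and 410 CPM in controls to 218, 376 and 202, to 148, 252 and 209, and to 108, 113 and 127 in T58A lymphomas, S62A lymphomas and masses. Rif1, which protects ends from resection, rose from 87.3, 77.0 and 81.7 CPM to 161, 124 and 132 in T58A lymphomas and 250, 212 and 364 in S62A lymphomas. In the masses it had 35.3, 61.7 and 65.6 CPM, under the controls, with a change of −0.60 (edgeR adjusted p = 0.0610).

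Alternative end joining, which works without Ku, had 2 of 10 genes up and none down in T58A lymphomas, 4 up and none down in S62A lymphomas, and 1 up and 4 down in the masses (edgeR). Parp1, which detects breaks, rose in all 3 groups (0.93, 1.08 and 0.79), and Lig3, a ligase of that pathway, in T58A (0.61) and S62A lymphomas (0.87). Polq, the polymerase of microhomology joining, rose in S62A lymphomas (0.76, edgeR adjusted p = 0.0131) and was 0.06 in T58A lymphomas (edgeR adjusted p = 0.841); between the lymphoma groups it differed by 0.70 (edgeR adjusted p = 0.0882). Homologous recombination had 2 of 12 genes up and 2 down, 4 up and 1 down, and none up and 7 down in the same order. In S62A against T58A lymphomas 0 genes of these 5 lists passed, where 3.15% of all genes did.

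**Figure D5:**
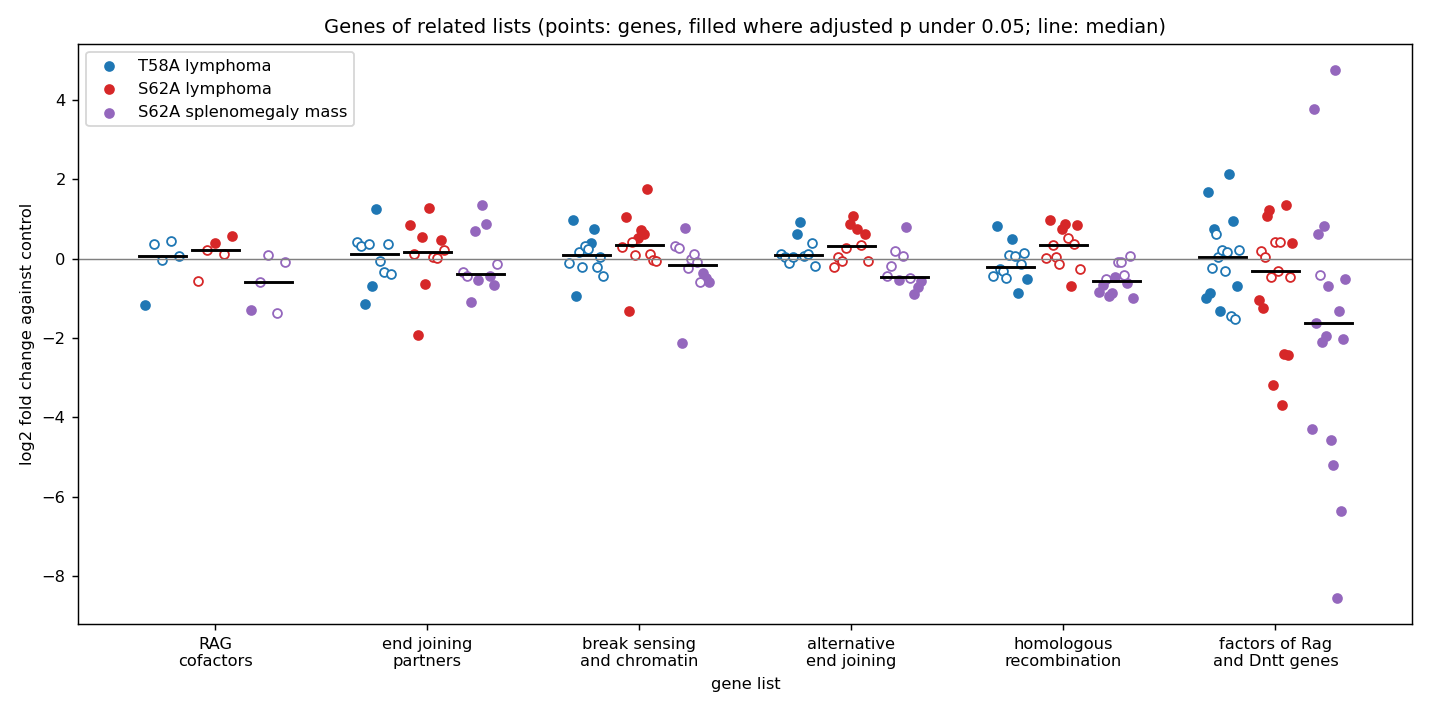
Log2 fold change against control (y axis) of the genes of 6 lists (x axis) in T58A lymphomas, S62A lymphomas and splenomegaly masses; each point is a gene, filled where edgeR's adjusted p was under 0.05, and lines are medians. Most points of the repair lists lie near 0, and the transcription factor list spreads widest, with a median of −1.62 in the masses.

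Transcription factors known to act on the Rag and Dntt genes were the list that spread most. Of 17 factors 4 rose and 4 fell in T58A lymphomas, 4 rose and 6 fell in S62A lymphomas, and 4 rose and 12 fell in the masses (edgeR), with medians of 0.05, −0.31 and −1.62. Myb, required for Rag expression in thymocytes, was not called in T58A (0.17, edgeR adjusted p = 0.728) or S62A lymphomas (0.42, edgeR adjusted p = 0.342) and fell by 5.21 in the masses (edgeR adjusted p = 4.77e-06). Satb1 fell in S62A lymphomas (−2.43) and the masses (−6.36) and was −1.52 in T58A lymphomas (edgeR adjusted p = 0.110). Bcl11b, a factor of T cell commitment, fell in all 3 groups (−0.99, −1.05 and −4.31). Runx1 rose by 0.96 and 1.37 in the lymphomas and fell by 1.32 in the masses. The inhibitor Id3 fell in all 3 groups (−1.32, −3.19 and −1.94). Of the B lineage factors, Pax5 rose from 0.968 ± 0.062 CPM (SD, n = 3) in controls to 23.1, 26.9 and 28.9 in the masses. Ebf1 rose from 2.58, 2.75 and 6.06 CPM in controls to 45.6, 61.6 and 48.8 in the masses. Both also stand in the immature B cell list.

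The genes whose level over the 12 libraries was most like that of a recombination gene were found by Pearson's r of log2 CPM among 11169 genes, as a description. For Rag1 they were Cd27 (r = 0.991), Fam109a (0.987) and Paip2 (0.986). For Rag2 they were Chmp1b (0.994), Ip6k2 (0.993) and Abhd8 (0.987), and for Dntt Phkg2 (0.985), Inpp5e (0.985) and Zfp579 (0.978). The likeness is one of order and shape over 4 groups and not of size. Cd27, a costimulatory receptor of the TNF receptor family, went from 473 CPM in controls to 336, 371 and 30.6, a far smaller range than Rag1. Among the 10 genes, r was 0.940 for Rag1 with Dntt, 0.933 for Rag1 with Rag2, 0.926 for Rag2 with Dntt, 0.920 for Rag1 with Xrcc6 and 0.477 for Xrcc5 with Xrcc6. All these points share libraries and depth, and the masses set much of the range.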

How the data were processed

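Poly(A) RNA of thymic tissue was sequenced in 12 mouse libraries, per the labels' protocols after Trizol extraction and with a directional kit. The deposited tables hold raw read counts, whole numbers for each RefSeq transcript. FPKM was deposited separately by the authors, and levels per transcript length were taken from it. Per the submitters' processing notes, the build was mm9 and the tools were Bowtie 1.0.0, DESeq2 and bcl2fastq 2.20.0.422. Which tool counted, whether by strand, and how reads with several positions were handled was not given in the sources used here. Starts in the files were taken as counted from 0 and are printed counted from 1.

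The counts were analysed with edgeR 4.0.16 in R 4.3.3. For each symbol the transcript with the most reads was used, which left 24478 genes from 36141 rows. Genes were kept by filterByExpr (minimum count 10), scaled by TMM and fitted by quasi-likelihood in all 12 libraries with group as the only term, which leaves 8 residual degrees of freedom. P-values were adjusted by Benjamini-Hochberg over the 15606 genes tested in each comparison, with a threshold of 0.05. CPM use the scaled library sizes, and n is 3 libraries in each group. SE is the size of the log2 fold change divided by the square root of the quasi-likelihood F. It is thus derived from the test and rough for genes of few reads. A count of 0 was given a floor of 3 counts in its library; floors cover counting error only, as PCR copies were not told from separate molecules.

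Samples were grouped by their labels and numbered within a group in accession order. Alternatives were other size factors, DESeq2 1.42.0, no filter, the compared groups alone, the transcript with the fewest reads, limma 3.58.1 on log2(FPKM + 1) and log2(FPKM + 0.1), the libraries of title letter H, and leaving out each library. The FPKM fits kept genes of at least 1 FPKM in 3 libraries, or all genes. The scripts were tested on simulated counts. All 10 genes were named by rule, other genes by list or, for Rag1, Rag2 and Dntt, as the 3 most correlated genes of at least 5 mean CPM that are not predicted genes; B230118H07Rik and Suv39h2 were named for their overlap. The genes and lists were chosen with earlier results of these data known. Some genes of the lists are not reported here.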

Additional observations from a re-analysis of the deposited data

How the results depend on the processing

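No paired analysis was possible because the labels carry no replicate numbers shared between groups. Settings other than leaving out 1 library kept all libraries, the compared groups alone or the title letter H. Among values of the 10 genes under them, 518 kept their direction and their side of the threshold, 12 lost it, 5 gained it and 9 changed sign. DESeq2 gave Dntt no adjusted p in the 6 comparisons. Only 2 of the 10 genes, Dntt and Dclre1c, have several transcript rows. For the others the setting with the least-read transcript reread the same counts, which adds to the 518 by design. With letter H alone, control 3 being the lone control and its spread assumed to be that of the lymphomas, 413 genes passed between T58A lymphomas and controls in place of 5646, and 1 of the 10 in place of 6. Calls were lost for Rag2 (−3.91), Dntt (−3.12, adjusted p = 0.160), Xrcc5 (1.63, 0.135), Prkdc (−0.62, 0.257) and Nhej1 (−1.18, 0.221). Between the lymphoma groups 492 genes passed in edgeR (134 up, 358 down), 542 with library sizes alone (86 up, 456 down), 1785 in DESeq2, 0 with only the compared groups in the fit, 313 on FPKM with a pseudocount of 1 and 184 on the same without a filter; of the 10 genes DESeq2 called 1 in place of 0. The main fit shared its spread over all groups, although spread within the lymphoma groups was wider than within controls and masses. The cause of these changes was not tested.

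Some differences that had not passed changed sign: Lig4 in T58A lymphomas against controls (0.019 with only the compared groups, 0.073 with letter H), Xrcc5 in the masses against controls (0.0067 with RLE factors, 0.0076 in DESeq2), Dclre1c between lymphoma groups (0.35 with the least-read transcript), and Nhej1 in the masses against T58A lymphomas (−0.0057 with library sizes alone, −0.020 on FPKM with a pseudocount of 1 with or without a filter, −0.024 with 0.1). Leaving out 1 library each, the genes called ranged from 3865 to 5122 (T58A against control), 5114 to 6595 (S62A), 6020 to 6728 (masses), 148 to 783 (S62A against T58A lymphomas), 7262 to 8223 (masses against S62A lymphomas) and 5803 to 6460 (masses against T58A lymphomas). The counts among the 10 genes ranged from 5 to 6, 4 to 6, 7 to 9, 0 to 0, 6 to 6 and 5 to 7 in the same order. Signs also turned, with no call, for Lig4 in T58A lymphomas against controls (−0.070 to 0.055), Xrcc6 in S62A lymphomas against controls (−0.19 to 0.39), Xrcc5 in the masses against controls (−0.11 to 0.13), Rag2 (−0.61 to 0.18) and Dntt (−2.14 to 0.74) between lymphoma groups, and Xrcc4 (−0.18 to 0.092) and Nhej1 (−0.19 to 0.25) in the masses against T58A lymphomas.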
